A study of Caenorhabditis elegans with 12 samples.

Results

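The let-7 family microRNA (miRNA) genes of Caenorhabditis elegans described here are let-7, mir-48, mir-84 and mir-241. They were chosen by name and by their annotated class, miRNA, and they are 4 of 230 miRNA genes and of 46726 genes in the table of small RNA reads. Family members carry the same bases at the 5′ end of the mature miRNA, the seed by which a miRNA pairs with its target mRNAs. In larvae, mir-48, mir-84 and mir-241 act together on early stage transitions by repressing hbl-1, and let-7 acts later, at the step from larva to adult, by repressing lin-41. The mature forms persist in adults.

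Small RNA came from whole adult animals grown at 20 °C, 12 samples in 4 groups of 3. Control animals, strain YY1312, carry hrde-1(gg594), and mutant animals, strain YY1192, carry hrde-1(gg594) as well as hrde-2(gg517), so that no group is free of the hrde-1 allele. The sample titles call the control wild-type, and what gg594 changes in hrde-1 was not stated there. Each strain was fed bacteria making dsRNA from the L4440 vector, which holds no worm gene, or dsRNA matching oma-1, a gene of oocyte maturation. HRDE-1 is a nuclear Argonaute needed for inherited gene silencing in the germline, and the study compared small RNAs with and without hrde-2 under an RNAi trigger. All libraries of control animals carried the 5′ barcode AGCG and all libraries of mutants CGTC, so that genotype and barcode cannot be told apart in any comparison of genotypes below. The labelled stage and tissue could not be checked with mRNA markers, since only small RNAs were sequenced.

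The deposited table has 1 pooled column of reads per group, in which reads at genes numbered 25323188 for control animals on L4440 and 34238988 for those on oma-1 dsRNA, and 39077097 and 16057238 for hrde-2 mutants on the same foods. Values given below as a run of 4 follow that order of columns. No spread between samples could be measured. Intervals are at 95% and reflect the error of counting alone, in which PCR copies of a molecule pass for separate reads. In whole animals, fewer cells that make a miRNA and less of it per cell cannot be told apart. Levels are reads scaled to a common library size (CPM) after scaling by the trimmed mean of M values (TMM). They count all reads assigned to a gene, and whether those at a miRNA gene are its mature miRNA was not tested.

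The genes mir-48 and mir-241 lie side by side on chromosome V, both on the minus strand, 1678 bases apart. On build WBcel235, mir-48 (WBGene00003039) spans 14364412 to 14364509, and mir-241 (WBGene00003335) spans 14366188 to 14366283. Neither overlaps another annotated gene, with genes of the piRNA class left out of the search here and below. The other members are on the minus strand of chromosome X, mir-84 (WBGene00003312) at 16022404 to 16022478 and let-7 (WBGene00002285) at 14743590 to 14745321. The span of let-7 is that of its primary transcripts, 1732 bases, within which the precursor hairpin takes 14744173 to 14744271. The other genes are annotated at the size of a hairpin, 98 bases for mir-48, 75 for mir-84 and 96 for mir-241.

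Of the 4 genes, mir-48 and mir-241 carried nearly all reads of the family. Reads at mir-48 numbered 508 and 778 in control animals fed L4440 and oma-1 dsRNA, and 10687 and 3430 in mutants fed the same. Scaled for depth these were 31.1 CPM (28.4 to 33.9), 34.1 (31.8 to 36.6), 160.3 (157.3 to 163.4) and 157.2 (152 to 162.6) in the same order. Both mutant columns lay above both control columns, and within a genotype the columns were close. Reads at mir-241 numbered 52, 87, 3063 and 948, which are 3.18 CPM (2.37 to 4.17), 3.82 (3.06 to 4.71), 45.9 (44.3 to 47.6) and 43.5 (40.7 to 46.3). Again the mutant columns were high and the control columns low. Their counting intervals did not overlap, and for how many of all features this held was not counted.

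**Figure D1:**
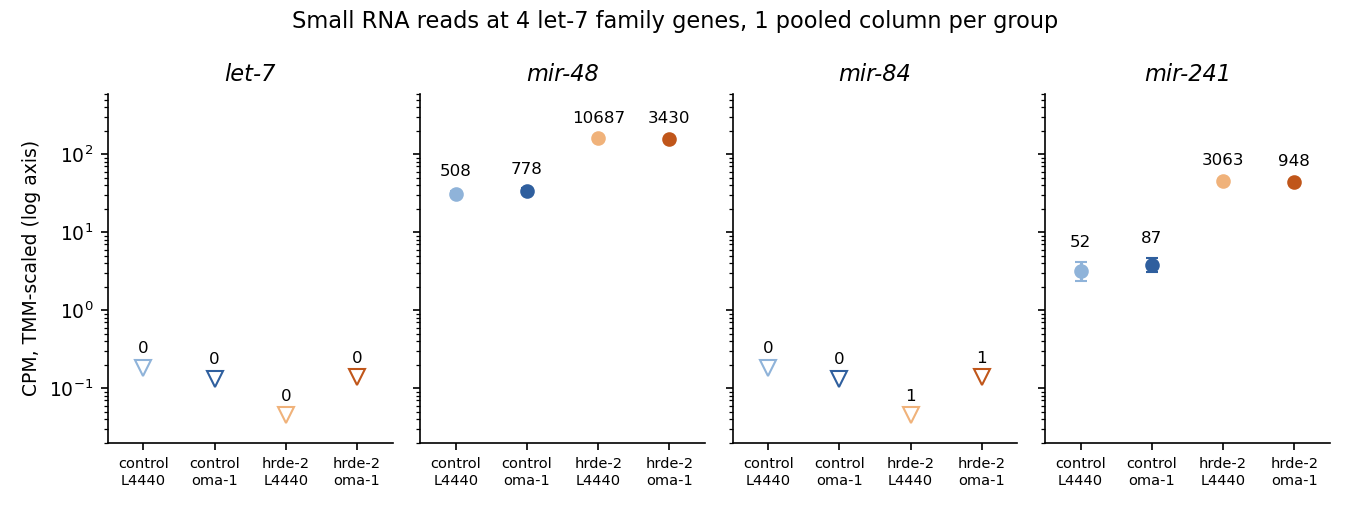
Level of each let-7 family gene in the 4 pooled columns, in CPM after TMM scaling on a log axis. Points are levels with exact Poisson 95% intervals, the numbers are reads, and open triangles stand at the level of 3 reads for columns with 0 or 1 read. The hrde-2 columns are above the control columns for mir-48 and mir-241, and let-7 and mir-84 have at most 1 read.

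Almost no reads were assigned to let-7 and mir-84. The founding member of the family, let-7, is listed at 0 in all 4 columns, where 3 reads would be 0.183, 0.132, 0.0450 and 0.138 CPM. Reads at mir-84 numbered 0, 0, 1 and 1, which is under that floor everywhere, and no ratio is given for either gene. These zeros cannot be read as absence from the animals. Of the 230 miRNA genes 72 had no read in any column, and among them were lin-4, the other founding miRNA of developmental timing, and mir-1, mir-50, mir-52, mir-71 and mir-80. Reads that the counting could not assign to 1 gene made up 40.4 to 42.4% of all reads listed, and reads at no annotated feature 17.6 to 21.4%. Of the 72 genes at 0, 54 overlap a gene of another class, piRNA genes aside, on either strand in the annotation used here, against 74 of the 158 miRNA genes with reads. Inside the let-7 span lie the protein-coding gene C05G5.7 and, on the other strand, the noncoding RNA gene C05G5.8, neither of them over the hairpin, and each had at most 2 reads in a column. No annotated gene outside the piRNA class overlaps mir-84. Whether mature let-7 and mir-84 are among the reads without a gene was not tested, because only counts per gene were analysed.

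Levels were compared between members per length of the annotated span. That span is of the hairpin or the primary transcripts and not of the mature miRNA, and CPM without this division gave the same order. At 317, 348, 1636 and 1604 CPM per kilobase, mir-48 ranked first in every column. At 33.1, 39.8, 479 and 453 CPM per kilobase, mir-241 was second, and their counting intervals did not overlap in any column. Below them came mir-84, at or near 0, and let-7 at 0, and these last members could not be ordered.

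The first comparison asks how the family differed between genotypes without the oma-1 trigger. On L4440 the mir-48 level was 5.16 times higher in hrde-2 than in control (4.72 to 5.65), a log2 difference of 2.37. The mir-241 level was 14.5 times higher (10.99 to 19.4), a log2 difference of 3.85. Reads summed over the 4 genes gave a ratio of 6.03 (5.54 to 6.57), and 5.16 without mir-241. Both genes were past 2-fold higher, as were 13.1% of the 2138 features compared, which were those at 5 CPM or more in the higher column, while 29.5% were past 2-fold lower. Of these features, 5.75% had a larger rise than mir-48 and 0.561% a larger one than mir-241. In control mir-241 was under 5 CPM, so that it entered this comparison through its hrde-2 column alone. These ratios have no replicate check.

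With the trigger the differences were of like size. On oma-1 dsRNA the mir-48 level was 4.60 times higher in hrde-2 (4.26 to 4.98), and the mir-241 level 11.4 times higher (9.13 to 14.3). The sum over the family was 5.29 times higher (4.91 to 5.69). Both genes were again past 2-fold higher, as were 13.7% of 2130 features, with 27.9% past 2-fold lower. The comparisons on the 2 foods share no column.

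The size of these ratios depended on the scaling, and their direction did not under any scaling tried. For mir-48 the ratio on L4440 was 9.03 with the authors' own constants and 13.6 with gene-assigned library size alone. For mir-241 it was 25.3 and 38.2. Scaling to the reads at the other miRNA genes left the sum over the family at 6.46 on L4440 and 5.54 on oma-1 dsRNA, close to the TMM values. The median genotype difference of all features, near 0 under TMM at 0.02, was 0.70 with the authors' constants and 1.22 with library size. Under TMM with 10 CPM required in at least 3 columns, the mir-48 ratio on L4440 was 9.80. There the median was −0.01, over the 878 features kept. Why the ratios differed between these settings was not tested.

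**Figure D2:**
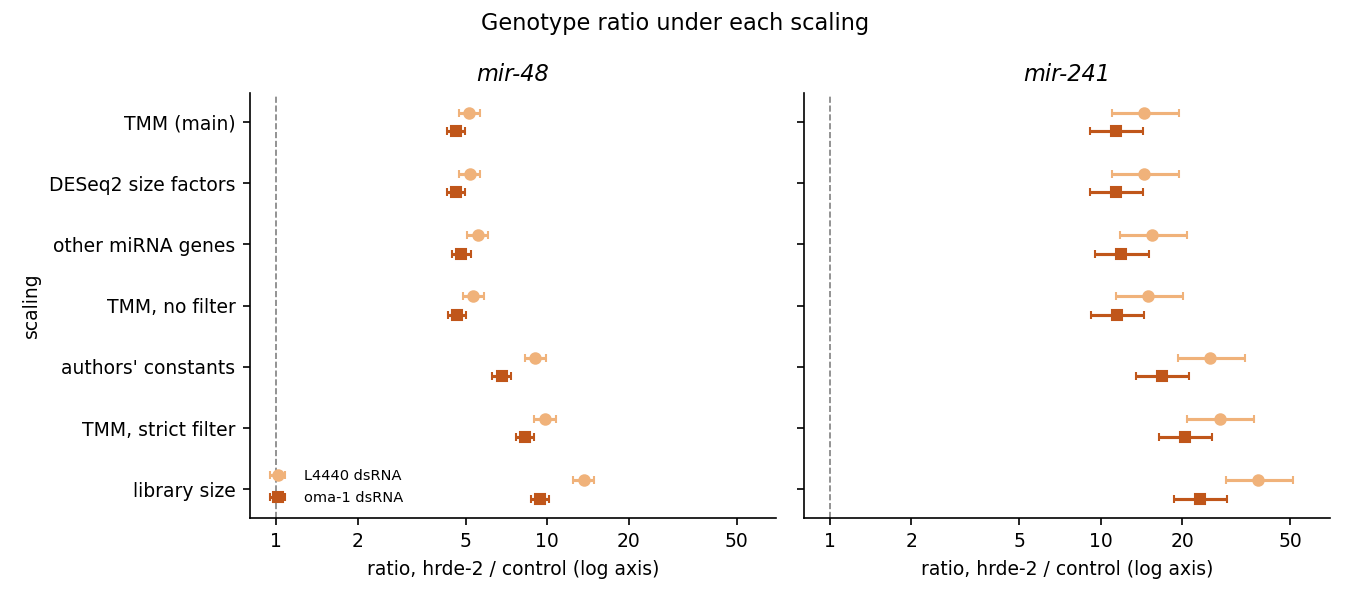
Ratio of the level in hrde-2 to that in control (log axis) for mir-48 and mir-241 under each scaling, on L4440 (circles) and on oma-1 dsRNA (squares). Bars are exact 95% counting intervals and the dashed line is a ratio of 1. Every ratio lies above 1, from 4.60 to 13.6 for mir-48 and from 11.4 to 38.2 for mir-241.

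Averaged over both foods, the genotype difference could be tested in an additive fit of all features. Its spread is the departure of the 4 columns from additivity, shared across features, and not the spread between animals or samples. In that fit mir-48 rose in hrde-2 by a log2 difference of 2.28 (SE 0.411, adjusted p = 7.9e-07, edgeR quasi-likelihood test), and mir-241 by 3.67 (SE 0.396, adjusted p = 3.6e-18, edgeR). The level was higher in 2 of 2 mutant columns for each, and for how many of all features this held was not counted. Features called higher made up 8.95% of the 16329 tested and features called lower 9.7%. Both genes kept the call under each setting that tested them, with an adjusted p between 1.5e-14 and 7.9e-07 for mir-48 and between 6.1e-22 and 3.6e-18 for mir-241 (edgeR and DESeq2), but mir-241 was removed when 10 CPM was required in 3 or more columns. The let-7 and mir-84 genes had too few reads to be tested.

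Counted as a share of all reads at miRNA genes, which needs no scaling, both genes were also higher in the mutants. Reads at mir-48 made up 0.737% of miRNA-gene reads in control on L4440 (Wilson interval 0.676 to 0.803) and 0.853% in control on oma-1 (0.796 to 0.915). In the mutants they made up 3.91% on L4440 (3.83 to 3.98) and 3.94% on oma-1 (3.82 to 4.08). For mir-241 the shares were 0.0754, 0.0954, 1.12 and 1.09%, in the same order of columns. The 4 genes together held 0.812, 0.949, 5.03 and 5.04% of miRNA-gene reads. The miRNA-gene reads numbered from 68943 in control on L4440 to 273592 in hrde-2 on L4440, and let-7 had 0 of them in each column. In control on L4440, the column with the fewest, 3 reads would be a share of 0.00435%, taken as a floor. The Wilson interval for the 0 reads of let-7 there reached 0.00557%. Most miRNA-gene reads were at genes that overlap a gene of another class, piRNA genes aside. Genes without such overlap or another gene of near-equal reads held 2475 reads in control and 17647 in hrde-2 on L4440. A share also moves with the reads at the other miRNA genes.

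The ratio between the neighbours mir-48 and mir-241 itself differed between genotypes. Of the reads at the pair, mir-241 had 9.29% in control on L4440 (7.15 to 11.97) and 10.1% in control on oma-1 (8.23 to 12.2), against 22.3% in hrde-2 on L4440 (21.6 to 22.98) and 21.7% in hrde-2 on oma-1 (20.5 to 22.9). The columns of a genotype overlapped within counting error and the genotypes did not. Relative to mir-48, mir-241 reads were 2.80 times higher in hrde-2 on L4440 (2.10 to 3.74) and 2.47 times higher on oma-1 dsRNA (1.96 to 3.12). No scaling enters these ratios, and they too lack replicates.

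**Figure D3:**
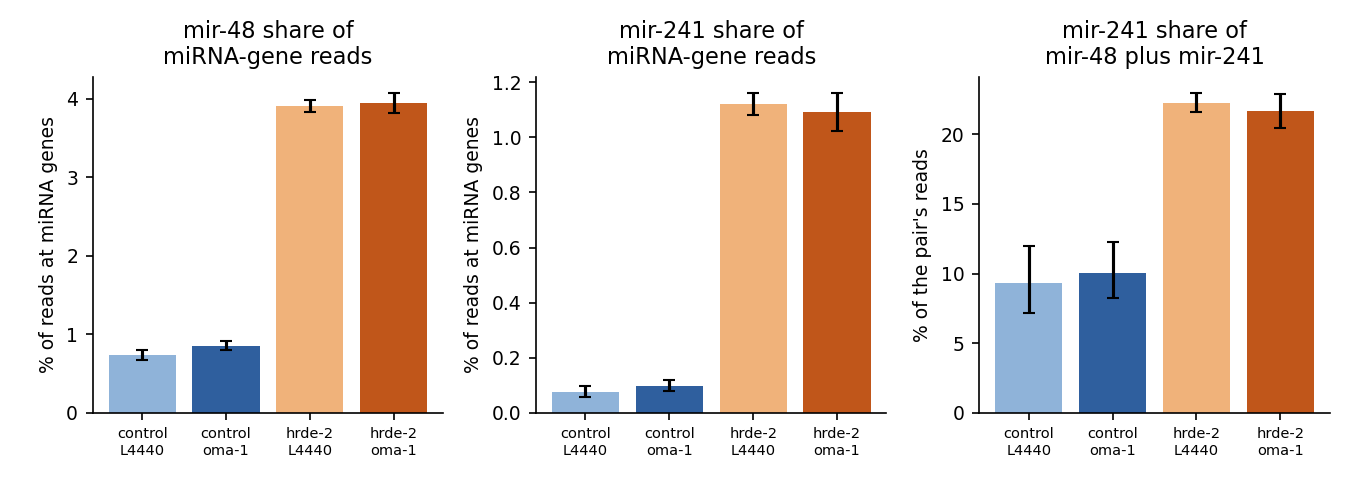
Share of miRNA-gene reads at mir-48 and at mir-241, and share of mir-241 in the reads of the pair, in percent with Wilson 95% intervals, for the 4 pooled columns. The pair's mir-241 share is 9.29 and 10.1% for control animals and 22.3 and 21.7% for mutants.

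Values at mir-241 carry a further limit. The protein-coding gene F15D4.5 (WBGene00008862), on chromosome II at 13245376 to 13247774, had 60, 100, 3161 and 944 reads, within 5% or 15 reads of mir-241 in every column. On L4440 its ratio of hrde-2 to control was 12.9 (10.02 to 16.98), and with the trigger it was 9.86 (8.02 to 12.2). Reads that match several places can be listed at each of them, and whether the genes share reads was not tested. The larger change of mir-241 and its share of the pair rest on reads that may not be its own. No gene came within that margin of mir-48.

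Among the miRNA genes compared, mir-241 had the largest rise from control to hrde-2 on both foods. It ranked 1 of 24 miRNA genes compared on L4440 and 1 of 25 on oma-1 dsRNA, and mir-48 ranked 2 and 3. Next to them came mir-64 at log2 differences of 1.82 and 1.62 and mir-49 at 1.81 and 2.50. In control mir-241 stood at 3.18 and 3.82 CPM, under the 5 CPM cut, so that its hrde-2 columns alone brought it into the ranking. The same held for mir-49, with 29 and 32 reads in control on L4440 and on oma-1 dsRNA. Those of the 230 miRNA genes under 5 CPM in both columns were not ranked, among them mir-359 with 2, 7, 122 and 32 reads. The other miRNA genes differed in both directions: of the 22 compared on L4440, 5 were past 2-fold higher in mutants and 6 past 2-fold lower, with a median log2 difference of −0.47, which was also the median of all features compared. On oma-1 dsRNA 5 of 23 were higher and 4 lower, with a median of 0.04 against −0.39 for all features. In the additive fit 16 of 67 other miRNA genes were called higher and 8 lower (edgeR), where 8.95% of all features tested were called higher and 9.7% lower. At the other end were mir-42, at −3.87 and −1.99, and mir-41, at −2.58 and −2.16, both of the mir-35 family of oocytes and embryos. In hrde-2 mir-42 was under 5 CPM on both foods, so that its control columns alone brought it in.

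**Figure D4:**
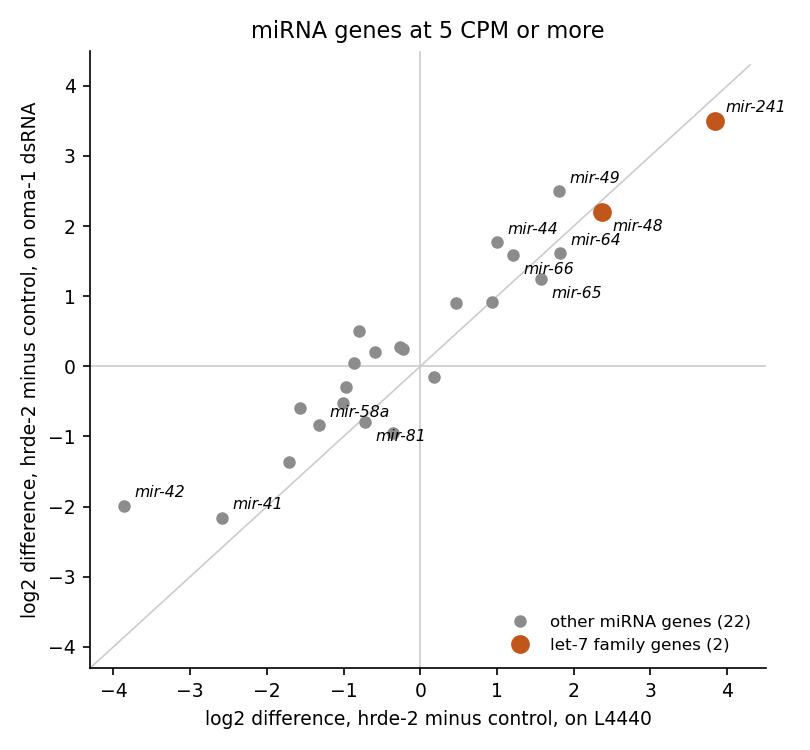
Log2 difference in level between hrde-2 and control, on L4440 (x axis) and on oma-1 dsRNA (y axis), after TMM scaling. Shown is each miRNA gene at 5 CPM or more in the higher column of both comparisons. The large points are mir-48 and mir-241, the small points are 22 other miRNA genes, and the diagonal marks equal differences. The mir-241 point, at 3.85 and 3.50, lies highest on both axes.

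The miRNA genes mir-793, mir-794 and mir-795 are often grouped with let-7, and their values were looked up after those of the 4 members had been seen. Reads at mir-795 numbered 10, 18, 133 and 36, and the gene rose in hrde-2 in the additive fit by a log2 difference of 1.35 (adjusted p = 0.00055, edgeR). It stood at 0.611, 0.790, 1.995 and 1.65 CPM, under the 5 CPM used for the other comparisons. With 3, 1, 5 and 0 reads mir-794 was too low to compare, and mir-793 is listed at 0 in every column.

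The second pair of comparisons asks whether the family responded to oma-1 dsRNA. In control animals the mir-48 level on oma-1 dsRNA was 1.10 times that on L4440 (0.982 to 1.23), and in hrde-2 mutants 0.981 times (0.944 to 1.02). Neither differed beyond counting error under TMM with the filter of the additive fit. For mir-241 the ratios were 1.20 (0.843 to 1.73) and 0.946 (0.878 to 1.02). In control it was under 5 CPM on both foods. Neither gene reached 2-fold, and few features did: 0.644% of 2018 were at least 2-fold higher and 0.297% lower in control, and 3.78% of 1853 higher and 1.08% lower in hrde-2. Averaged over genotypes the log2 difference was 0.05 for mir-48 (SE 0.393) and 0.07 for mir-241 (SE 0.367), and neither passed the test (adjusted p = 0.9995 for both, edgeR). In that fit 0.098% of features were called higher and 0.0796% lower. The sign of these small differences turned with the scaling: with library size the averages were −0.09 and −0.10, and the mir-48 ratio in hrde-2 was 0.781.

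Taken as hrde-2 minus control, the log2 dsRNA differences of mir-48 under TMM with the filter of the additive fit differed by −0.17 (counting SE 0.0870, interval −0.34 to 0.01). For mir-241 the value was −0.35 (counting SE 0.259, interval −0.85 to 0.16). Both intervals take in 0, while that of the summed family, at −0.19 (−0.35 to −0.03), did not. The values moved with the scaling, as alternatives chosen after seeing the data. For mir-48 the value was −0.54 with library size (−0.71 to −0.37), −0.41 with the authors' constants (−0.58 to −0.24) and −0.20 with the reads at other miRNA genes (−0.37 to −0.03), so that whether the interval took in 0 depended on the scaling. For mir-241 the same scalings gave −0.72 (−1.22 to −0.21), −0.59 (−1.10 to −0.08) and −0.38 (−0.89 to 0.13). With 1 column a group this interaction has no test beyond counting error.

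The features whose pattern over the 4 columns was most like that of mir-48 were protein-coding genes. Likeness was the largest deviation in any column between log2 levels centred on their own mean, over 2283 features at 5 CPM or more in some column. Closest were C03A7.2 at 0.0803 with 46, 75, 925 and 316 reads, nhr-25 at 0.0818 with 71, 119, 1469 and 511 reads, and ZK262.8 at 0.0914 with 53, 74, 1069 and 367 reads. The nhr-25 gene encodes a nuclear hormone receptor of the epidermis and molting. For mir-241 the closest were F15D4.5 at 0.117, lido-18 at 0.194 and cyp-34A9, a cytochrome P450 gene, at 0.206. Among these 2283 features mir-241 ranked 207th in likeness to mir-48, and mir-48 ranked 47th in likeness to mir-241, with a deviation of 0.758.

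Other genes lay within 3 kilobases of the members, piRNA genes not being searched. F56A12.5, a small nuclear RNA gene 2376 bases from mir-48 on the same strand, had 100, 146, 72 and 32 reads, and the small nucleolar RNA gene F56A12.6, 1960 bases from mir-48 on the other strand, had 3, 4, 6 and 3. F56A12.8, a noncoding RNA gene 327 bases from mir-241 on the other strand, had 0, 0, 1 and 2. The protein-coding gene nhx-1, 648 bases from mir-84 on the other strand, had 6, 2, 10 and 4 reads. The noncoding RNA gene B0395.7, 2699 bases from mir-84 on the same strand, had 958, 1335, 12599 and 4892 reads, which was 3.23 times higher in hrde-2 on L4440 (3.02 to 3.45) and 3.83 times higher on oma-1 dsRNA (3.60 to 4.07). It was singled out after its values were seen, and whether these reads belong to mir-84 was not tested.

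Small RNA reads at the mRNAs of the developmental timing pathway were under 5 CPM for most genes. Of the 18 listed, 2 reached that level in the comparison of genotypes on L4440 and 3 on oma-1 dsRNA. The most reads in mutants were at nhr-25, 1469 on L4440 and 511 on oma-1 dsRNA. All 18 heterochronic genes listed had reads, 17 were tested in the additive fit, and 3 rose in hrde-2 while 0 fell (edgeR, adjusted p under 0.05), where 8.95% of all features tested were called higher and 9.7% lower. The 3 were nhr-25 at a log2 difference of 2.25 (adjusted p = 1.3e-09), lin-14, the first known target of lin-4, at 1.46 (adjusted p = 0.013) from 5, 6, 46 and 20 reads, and sea-2 at 0.96 (adjusted p = 0.0052). The let-7 target lin-41 had 68, 80, 273 and 126 reads and a difference of 0.34 that did not pass (adjusted p = 0.41, edgeR), and hbl-1 had 16, 21, 69 and 18 reads and a difference of −0.02 (adjusted p = 0.98, edgeR). The median over the list was 0.14, against 0.02 for all features. These reads are small RNAs assigned to the gene and not its mRNA level.

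Small RNA reads at genes of miRNA processing and function were tested as well, and these too are not mRNA levels. Of 20 genes, small RNA reads rose at 1 and fell at 3 in hrde-2 in the additive fit, with a median log2 difference of −0.25. These counts are near the shares over all features, 8.95% called higher and 9.7% lower. The gene whose small RNA reads rose was xrn-1, an exonuclease gene, at 0.90 (adjusted p = 0.011, edgeR). Those that fell were cgh-1, which encodes a germline RNA helicase, at −1.57 (adjusted p = 0.0021), ain-1, a partner of miRNA Argonautes, at −1.35 (adjusted p = 6.9e-06), and ebax-1 at −1.14 (adjusted p = 0.00015). The miRNA Argonaute genes alg-1 and alg-2 stood at −0.61 and −0.27 and did not pass (adjusted p = 0.075 and 0.54, edgeR).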

How the data were processed

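Small RNAs of 12 samples were cloned by a method independent of a 5′ monophosphate and sequenced on a NextSeq500, per the labels' protocols. Reads were counted with HTSeq 0.6.1, per the submitters' processing notes. Not given in the sources used here: aligner, build, strand setting, handling of reads with several matches. The authors' deposited table holds raw read counts in 1 column per group, per the file headers, and a second block in which the authors divided each column by its own constant (1, 1.34, 2.33 and 0.87) to give a normalized signal. The way samples were pooled was not stated. Reads at no gene were left out: no feature 17.6 to 21.4%, ambiguous 40.4 to 42.4%, not aligned 1.92 to 2.76%.

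Of 46726 identifiers 46364 matched Ensembl's WBcel235 annotation. The let-7 gene was matched by its sequence name through the RefSeq gene table. Features were kept by filterByExpr of edgeR 4.0.16 (minimum count 10, total 15), leaving 16329. The additive fit of genotype and dsRNA used TMM, glmQLFit (robust) and glmQLFTest with Benjamini-Hochberg adjustment over all features, a prior count of 0.5 for log2 differences, 1 residual degree of freedom and a common dispersion of 0.0305. SE is the absolute log2 difference without the prior count, divided by the square root of F. DESeq2 1.42.0, other scalings and other filters were alternatives. The fit was also run on counts simulated at its own common dispersion, which cannot check the spread between samples. Ratios of levels carry conditional binomial (Clopper-Pearson) intervals, levels exact Poisson intervals and shares Wilson intervals. Intervals from a normal approximation on the log scale were used for mir-241 relative to mir-48 and for differences of dsRNA differences. Genes named are the members, near-equal partners, the 3 features most like each, overlapping or neighbouring genes, and listed pathway genes. Members and lists were chosen with earlier results of these data known. Mature sequences were not used here.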

Additional observations from a re-analysis of the deposited data

How the results depend on the processing

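No paired analysis was possible because the deposited columns pool the 3 samples of a group and carry no replicate number, so that leaving out a replicate could not be run either. The genotype calls of mir-48 and mir-241 and the absence of a dsRNA call held under each setting that tested them, while the sizes moved with the scaling and the cause was not tested. For the 4 members summed, hrde-2 against control on L4440 and on oma-1 dsRNA gave 15.9 and 10.8 with library size, 10.5 and 7.80 with the authors' constants, 11.4 and 9.52 with 10 CPM in at least 3 columns, and 5.16 and 4.61 without mir-241. The sum on oma-1 dsRNA against L4440 in hrde-2 was 0.775, 0.853 and 0.806 under the first 3 of these, and in control it was 0.969 with the strict filter. Features called higher and lower by genotype, 1461 and 1584, became 10251 and 216 with library size, 4764 and 477 with the authors' constants, 165 and 68 with the strict filter, which tests 878 features, and 356 and 600 with DESeq2. Features called by dsRNA, 16 and 13, became 9 and 6 with library size, 10 higher with the authors' constants, 8 lower with miRNA scaling, 0 and 0 in edgeR with the strict filter (3 and 11 at an unadjusted p under 0.05), and 5 and 0 with DESeq2 (32 and 19 at an unadjusted p under 0.05). Over miRNA genes that overlap no gene of another class, piRNA genes aside, and have no near-equal partner, mir-48 held 20.5, 21.6, 60.6 and 51.7% of reads. The difference of the dsRNA differences of the summed family, −0.19 under TMM, was −0.56 with library size and −0.43 with the authors' constants, alternatives chosen after seeing the data. With 52 control reads, the ratio of mir-241 on L4440 had a counting interval of 10.99 to 19.4.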
